A study of Homo sapiens with 35 samples.

Results

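The RNA polymerase II (RNA Pol II) sites described here lay at promoters of U-87 MG cells, an established human glioblastoma line, and had a ChIP-seq peak only after TWEAK treatment. Overlapping peaks of the 4 control RNA Pol II lists were merged into 70348 sites on chromosomes 1 to 22 and X. A site was a member when it held a peak in both lists of TWEAK-treated cells and in neither list of untreated cells, and when its centre fell at most 1000 bp before or 100 bp after a GENCODE transcript start. The members were thus chosen by the presence of RNA Pol II peaks in the control lists, and no test is given on those peaks. This gave 279 sites at promoters of 325 genes. For comparison, 5190 promoter sites had a peak in all 4 lists, and these are called constant promoter sites. Another 114 promoter sites had a peak in both untreated lists and neither TWEAK list, and 1058 sites outside promoters were gained in the same way as the members.

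The control cells were U-87 MG cells with genotype control, either untreated or given 10 ng/ml TWEAK. The knockdown (KD) groups carried the genotype ETS1 KD or NFKB2 KD and were all given TWEAK. The labels put every treatment after 8 h of starvation in optimem, with 48 h of TWEAK replenished at 24 h. Each RNA-seq group had 3 libraries and each ChIP-seq group 2, with peak lists for RNA Pol II in 4 groups, for p52 in control cells and in *ETS1* KD cells of 2 guides, and for ETS1 in control cells. The KD cells were lentiCRISPR cultures, for which no KD group without TWEAK was analysed here, and the study's methods state that the study did not authenticate the lines by STR profiling. Since these are bulk samples, fewer cells carrying polymerase or RNA and less of it per cell cannot be told apart.

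TWEAK belongs to the TNF cytokines and signals through the receptor Fn14. In the non-canonical NF-κB pathway, it lets p100, the product of *NFKB2*, be processed to p52, which enters the nucleus and binds DNA with the sequence known as the κB element. RNA Pol II transcribes protein-coding genes and many non-coding genes, and much of it is found just downstream of transcript starts. ETS1 is a transcription factor that recognises GGAA core sequences, which are common near promoters.

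Both targeted genes were checked in every RNA-seq library. *NFKB2* was at 49.6, 54.5 and 66.6 CPM (counts scaled to a common library size) in untreated cells, 235, 289 and 346 in TWEAK-treated cells, 209, 235 and 273 in *ETS1* KD cells and 75.7, 92.6 and 105 in *NFKB2* KD cells. *ETS1* was at 42.1, 41.3 and 45.1 CPM in untreated cells, 71.9, 73.1 and 87.6 with TWEAK, 28.2, 33.0 and 37.8 in *ETS1* KD cells and 67.1, 48.8 and 65.4 in *NFKB2* KD cells. Each KD group lay below all TWEAK-treated control libraries for its own target. The RNA-seq libraries held 28384201 to 40192606 counts. The third untreated, the first TWEAK-treated and the second *NFKB2* KD library stood apart from the others of their groups, with a chi-square per gene of 50.4 to 88.4 against each of them. The second *ETS1* KD library did so at 38.1 and 46.0, against 17.3 between the other 2. All 6 mesenchymal markers of the line reached 1 CPM in every group, whereas of 6 glial markers only *SOX9* and *NES* did. The summed level of immune, endothelial or epithelial markers was at most 3.96 CPM in any group, and that of the 3 neuronal markers 29.5 to 33.7 CPM.

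The κB elements at members with a p52 site come first, because they lie where a gained RNA Pol II site and a peak of the factor of this pathway share bases. All stretches are from hg38 and written 5′ to 3′ on the strand of the gene, with the motif match in capitals. The first searched form was GGG, any 3 bases and TTCC, and the second was GGG, any 4 bases and CCC. Both were searched on both strands, so that a match can appear in reverse, and the forms can overlap. For these stretches, the search covered only the RNA Pol II site and the bases up to 250 bp before the start. Parts of some p52 sites were thus not searched and may hold further matches. A p52 site of both TWEAK-treated control libraries shared bases with 11 members. Of these, 7 held a match of either form in the searched part of the p52 site. The stretches of 6 of these are given, and the seventh lies in the ribosomal DNA repeats of chromosome 21, where reads map to many copies.
UNKL, chr16:1379185-1379254 on the minus strand: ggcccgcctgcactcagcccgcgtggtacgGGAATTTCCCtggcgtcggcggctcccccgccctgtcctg
CCND1, chr11:69642793-69642862 on the plus strand: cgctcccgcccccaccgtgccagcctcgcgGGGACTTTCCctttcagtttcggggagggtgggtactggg
GSN, chr9:121286224-121286293 on the plus strand: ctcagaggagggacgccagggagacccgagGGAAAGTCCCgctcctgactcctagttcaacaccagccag
ZNF3, chr7:100082713-100082782 on the minus strand: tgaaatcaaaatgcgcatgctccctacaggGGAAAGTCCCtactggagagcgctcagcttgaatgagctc
CAMK1G, chr1:209607486-209607555 on the plus strand: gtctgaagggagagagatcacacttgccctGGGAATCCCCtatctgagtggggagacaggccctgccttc
ENSG00000288898, chr2:218908942-218909011 on the plus strand: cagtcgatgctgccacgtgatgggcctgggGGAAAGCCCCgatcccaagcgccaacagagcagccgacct

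Further stretches are given for members whose RNA rose with TWEAK, since they show the searched letters within the gained site itself. *TRAF3* and *TNIP2* encode regulators of NF-κB signalling and each held a κB form upstream of the start. *KIFC3* held a match to the AP-1 form TGANTCA, and *ALDH1A3* a match to the ETS form CCGGAAG.
TRAF3, chr14:102777406-102777435 on the plus strand: cgggcgcgccGGGGATTTCCagcgcgcgag
TNIP2, chr4:2746270-2746339 on the minus strand: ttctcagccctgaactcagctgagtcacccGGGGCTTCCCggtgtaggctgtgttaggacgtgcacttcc
KIFC3, chr16:57764386-57764412 on the minus strand: gtatgactcaTGAGTCAcgaatcattg
ALDH1A3, chr15:100897545-100897611 on the plus strand: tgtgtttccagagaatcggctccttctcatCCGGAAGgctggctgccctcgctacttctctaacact

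Near the start, the κB forms were about as frequent over all members as at constant promoter sites and protein-coding genes. In the 300 bp that begin 250 bp before the start, the first κB form was present at 6.81% of the 279 members, 7.11% of constant promoter sites and 6.86% of the 19970 protein-coding genes. The second κB form was present at 20.1%, 21.2% and 21.1% of the same classes. Promoter sites lost with TWEAK held the first at 5.26% and the second at 8.77%. In 300 bp around the summit, the first form was at 8.96% of members, 6.57% of constant and 3.51% of lost promoter sites. The second was there at 19.0%, 21.5% and 6.14%. The shares that follow are again those near the start. The ETS form CCGGAAG was at 4.66% of members, against 20.2% of constant promoter sites and 14.1% of protein-coding genes. The GC box GGGCGG, a site of Sp-family factors, was at 46.6%, 70.1% and 61.3%. The AP-1 form was at 8.24%, 5.39% and 5.44%. Against these classes, members were thus poorer in the ETS form and the GC box and held the AP-1 form slightly more often. Promoter sites lost with TWEAK held the AP-1 form more often still, at 10.5%, so it was not particular to members.

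Base composition also differed between the classes. The median GC content of the window was 58.7% at members, 65.7% at constant promoter sites and 63.7% over protein-coding genes. The median observed-to-expected ratio of CpG was 0.552 at members, 0.857 at constant promoter sites and 0.776 over protein-coding genes. The promoter sites lost with TWEAK were lower still, at 49.0% GC and a CpG ratio of 0.405, yet they held the ETS form at 12.3%, more often than the members, and the GC box at 29.8%, less often. The part of base composition in the motif shares was not tested, and a match only describes letters.

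The gained sites lay on all 23 chromosomes and were small. Their median width was 485 bp, against 1025.5 bp for constant promoter sites. The nearest start belonged to a protein-coding gene at 220 sites (78.9%), to a long non-coding RNA at 43, to a small nucleolar RNA at 5 and to a microRNA at 4. At 233 sites the window held starts of 1 gene, at 42 sites of 2 genes and at 4 sites of 3 or more. A peak between 2 starts cannot be assigned to either gene. One site lay in the windows of *MIR106B*, *MIR93* and *MIR25*, microRNAs that lie together within an intron of *MCM7*, with its centre 5 bp downstream of the start of the first and 426 bp upstream of that of the last.

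The site centre lay within 100 bp of the nearest start at 46.6% of members and 65.4% of constant promoter sites. It lay more than 500 bp upstream at 22.6% of members and 8.11% of constant promoter sites. At the upstream limit of the window, *EBAG9P1* at -1000 bp and *PFKFB2* at -993 bp were just inside, while *LILRB3* at -1059 bp was outside. At the downstream limit, *BDNF* and *WDR1* at 97 bp were just inside, while *HLCS* at 104 bp and *PPA1* at 110 bp were just outside. A peak of either untreated RNA Pol II list lay within 1000 bp of 115 members (41.2%). Whether that peak belonged to the same promoter or was separate from the gained site was not tested.

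**Figure D1:**
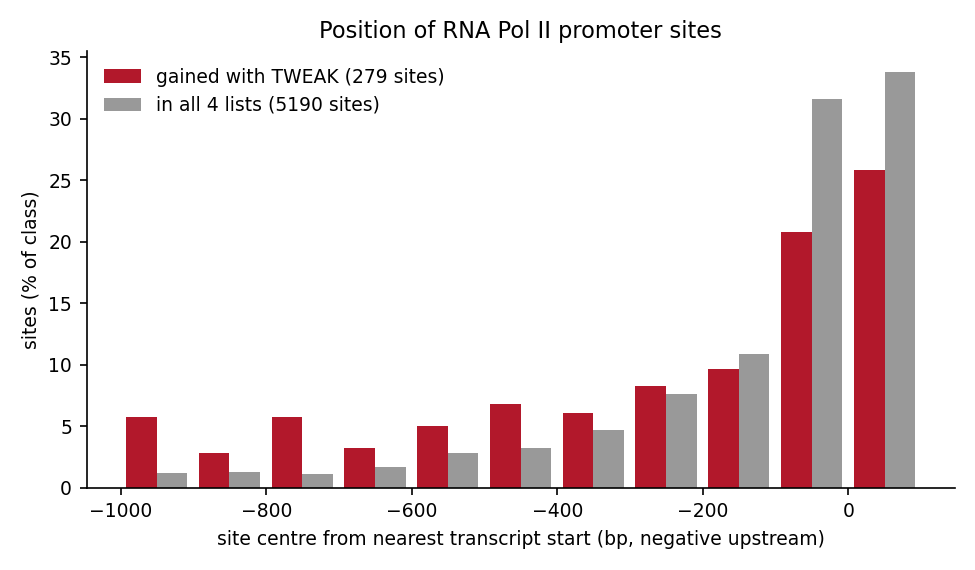
Bars show the share of sites in each class (y axis, percent) by the distance of the site centre from the nearest transcript start (x axis, bp, 100-bp bins). Of the gained sites, 25.8% lay from 0 to 100 bp downstream and 5.73% from 1000 to 901 bp upstream, against 33.8% and 1.23% of constant promoter sites.

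The peaks that defined the members were modest in size. The fold enrichment at the summit, as the authors' peak caller gave it, had a median of 4.78 (2.96 to 17.2) in the first TWEAK library and 4.81 (2.72 to 10.2) in the second. Constant promoter sites had medians of 12.3 and 9.78. These values chose the members and are a description only. The lists also differed in length, from 24848 and 38307 peaks in untreated cells to 44672 and 27056 with TWEAK, and the part of list length in the choice of members was not tested.

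Ranked by the lower of the 2 TWEAK values, the highest site was that shared by *NETO2*, which encodes an accessory protein of kainate receptors, and the non-coding *ITFG1-AS1*, with fold enrichments of 14.6 and 10.2. *HSD11B1-AS1*, a non-coding RNA gene, followed with 9.15 and 10.2. *UNKL*, which encodes a zinc finger protein, had 12.2 and 9.03. *LINC02703* had 10.47 and 7.84. All 4 stood above 7 in both libraries.

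The next sites were those of *NUAK2*, an AMPK-related kinase, with 10.6 and 7.51, and *RBM38*, an RNA-binding protein gene, with 8.88 and 7.51. *SLC4A4*, a sodium bicarbonate cotransporter gene, had 15.5 and 7.33. *LINC02613* had 7.73 and 7.05, and *CAMK2G*, a calmodulin-dependent kinase gene, had 6.74 and 8.24. *MCAM*, the gene of an adhesion molecule, and *GNA11*, the gene of a G protein subunit, both had 7.35 and 6.624, and *ZNF878*, a zinc finger protein gene, shared the tenth place with them at 6.74 and 6.624. Only *NUAK2* and *MCAM* of these genes passed the RNA test with TWEAK, in opposite directions.

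Peaks in KD cells were not used to choose the members. Constant promoter sites, however, were chosen for a peak in all 4 control lists, and members for the lack of one in both untreated lists. The classes thus differ by choice in how readily a peak is called. The part of this in the shares below was not tested. No peak was found in either *ETS1* KD list at 138 members (49.5%, exact 95% interval 43.4% to 55.5%), against 3.47% of constant promoter sites. No peak was found in either *NFKB2* KD list at 159 members (57.0%, 51.0% to 62.9%), against 2.50% of constant promoter sites. Both shares depended on single libraries. They ranged from 21.3% (without the second untreated library) to 81.2% (without the second TWEAK library) for *ETS1* KD, and from 18.8% (without the second untreated library) to 90.0% (without the first *NFKB2* KD library) for *NFKB2* KD. With control peaks of −log10 q of at least 5 they were 26.4% and 27.6%. Members with a peak in neither KD numbered 99 (35.5%), those with a peak in *ETS1* KD alone 60, in *NFKB2* KD alone 39 and in both 81. A peak in all 4 KD lists was present at 6 members.

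Other sites that changed with TWEAK also lacked KD peaks often. Among gained sites outside promoters, 51.2% had no peak in either *ETS1* KD list and 63.6% none in either *NFKB2* KD list. Among promoter sites lost with TWEAK, which were absent from TWEAK-treated control cells to begin with, the shares were 69.3% and 55.3%. The first of these and the 63.6% lay above the intervals of the members. The intervals cover counting error only, and no KD list of untreated cells was analysed here.

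Peak size and list length are given beside these shares. Among members whose lower TWEAK fold enrichment was under 4, 54.1% had no peak in either *ETS1* KD list, against 26.4% of constant promoter sites in that range. From 4 to 5 the shares were 48.8% and 12.5%, from 5 to 6 they were 40.6% and 8.45%, and at 6 and over 46.4% and 1.39%. For *NFKB2* KD, the members' shares over the 4 ranges were 57.1%, 64.5%, 37.5% and 46.4%, and those of constant promoter sites 20.9%, 13.3%, 5.37% and 0.648%. The share fell with each step at constant promoter sites. At members it fell up to the range of 5 to 6 for *ETS1* KD, but not for *NFKB2* KD, and was higher again in the last range for both. The last range is open and held 28 members and 4168 constant promoter sites. Fold enrichments in the first TWEAK library reached 17.2 at members and 603 at constant promoter sites, so peak sizes in that range were not alike. By list, the members had a peak in 31.2% and 39.8% of cases for the 2 *ETS1* KD libraries and in 40.1% and 10.0% for the 2 *NFKB2* KD libraries. The last of these lists was the shortest, with 11175 peaks, and constant promoter sites had a peak there in 77.1% of cases, against 96.3% in the other *NFKB2* KD list. The part of peak size and list length in the missing peaks was not tested.

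**Figure D2:**
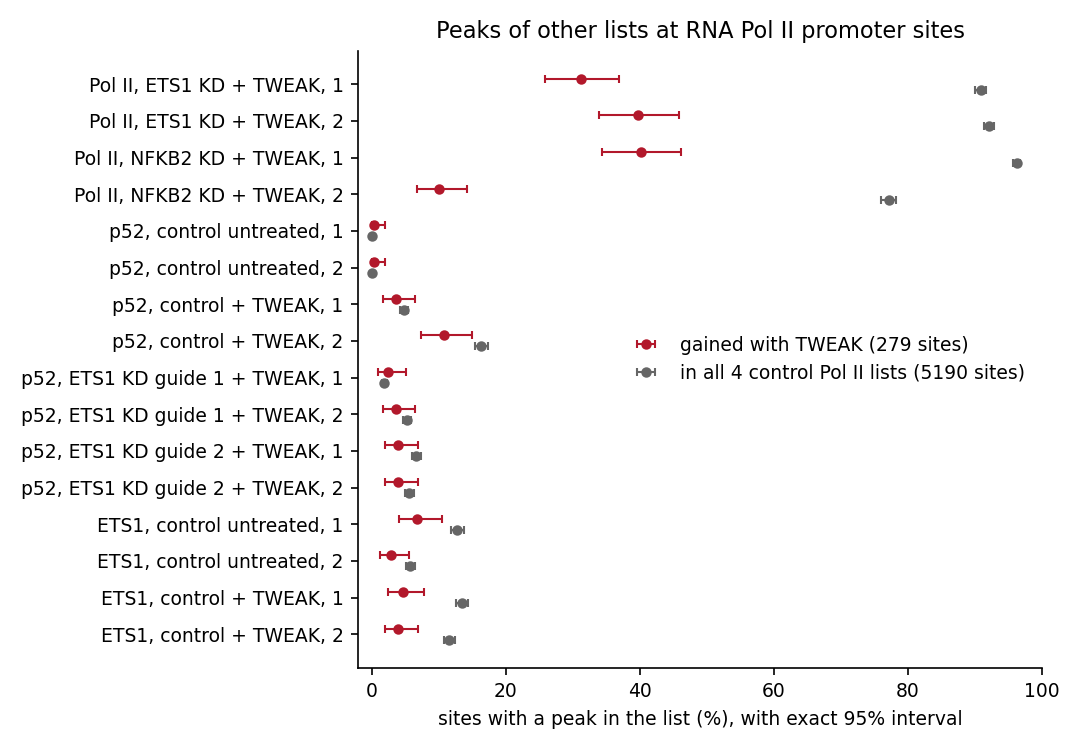
Points give the share of sites with a peak (x axis, percent) in each of 16 peak lists (y axis, with the replicate number), for gained and for constant promoter sites, and bars are exact 95% intervals. Gained sites had a peak in 10.0% to 40.1% of cases in the KD RNA Pol II lists, and constant promoter sites in 77.1% to 96.3%.

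A p52 site of both TWEAK-treated control libraries overlapped 11 members (3.94%, 1.98% to 6.94%), against 4.95% of constant promoter sites. The share of constant promoter sites lay within the interval of the members, so for p52 sites of both libraries no difference was detectable with this number of sites. With a p52 peak in either library, the shares were 10.8% (7.37% to 14.99%) and 16.4%, and here the constant share lay above the interval. In untreated cells, 1 member had a p52 peak in each list. Constant promoter sites were wider, with a median of 1025.5 bp against 485 bp at members. The part of width in the shares with a p52 or ETS1 site was not tested.

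Ranked by the lower of the 2 values, the strongest p52 sites at members were at *CCND1*, *ZNF3* and *GSN*. At *GSN*, which encodes the actin-severing protein gelsolin and whose site also lies in the window of *GSN-AS1*, the p52 fold enrichment was 16.5 and 48.8 in TWEAK-treated control cells. It was 14.2 and 30.3 with the first *ETS1* guide and 24.1 and 22.5 with the second. At *CCND1*, the gene of cyclin D1, it was 19.3 and 46.9 in control cells, 9.24 and 21.4 with the first guide and 32.2 and 32.0 with the second. At *ZNF3*, a zinc finger protein gene, it was 18.6 and 27.5 in control cells, 14.9 and 23.4 with the first guide and 28.8 and 21.9 with the second. The 2 control libraries lay far apart, and the values with either guide overlapped their range at all 3 genes.

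The other p52 sites overlapped members at *UNKL* (8.22 and 19.8), *ENSG00000288898* (10.6 and 25.8), *ZNF436-AS1* (11.9 and 20.5) and *CFAP52* (9.73 and 23.6). Each of these 4 had a p52 peak in all 4 *ETS1* KD lists. *CAMK1G*, a calmodulin kinase gene, had 8.27 and 12.3 and a peak in 3 of the 4. The sites at *ZDHHC23* with *ENSG00000273394* (4.35 and 11.1) and at *GEMIN7* with *MARK4* (3.70 and 11.97) had a p52 peak in none of them. The eleventh was the ribosomal DNA site of *ENSG00000280614* and *RNA5-8SN3*, which had 38.0 and 3.26, also held p52 peaks in both untreated lists and is uncertain because its reads map to many copies.

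ETS1 sites of both TWEAK-treated control libraries overlapped 8 members (2.87%, 1.25% to 5.57%), against 7.32% of constant promoter sites. With an ETS1 peak in either library, the shares were 5.73% (3.31% to 9.15%) and 17.7%. The members' share was 1.51% without the first TWEAK and 6.89% without the second untreated RNA Pol II library. It was 8.62% with control peaks of −log10 q of at least 5. The share of constant promoter sites in these settings is not given here, so the order of the classes is not settled for them. The highest was at the start shared by *CDC40*, a splicing factor gene, and *WASF1*, a regulator of actin assembly, with 16.7 and 18.0 after TWEAK and 15.6 and 14.996 in untreated cells. *DPYSL3*, which encodes a protein of the growth cone, had 6.07 and 7.44 after TWEAK and 12.3 and 7.91 before. The remaining sites were at *ENSG00000288898*, *ENSG00000285744*, *NETO2* and *ENSG00000280614*, and at *ZIC2* and *ENSG00000288060*, which shared 1 ETS1 site. All 8 also had an ETS1 peak in at least 1 untreated list. Members with a site of both factors were *ENSG00000288898* and the ribosomal DNA site.

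RNA was measured independently of the choice of sites. Of the 325 genes, 255 passed the filter on low counts, 69 did not and 1 was not in the table. With TWEAK, 21 of the 255 passed an adjusted p of 0.05 in edgeR's quasi-likelihood test (8.24%), of which 19 rose (7.45%) and 2 fell. Without the third untreated library 17 passed, and without the first TWEAK library 20, all of them higher. Without the second untreated library only 10 passed. The shares of all genes called without the third untreated or the first TWEAK library are not given here. In the fit with all libraries, 3.08% of all 16879 genes tested passed, 1.55% upwards and 1.53% downwards. The median log2 fold change was 0.10 over member genes, 0.03 over genes of constant promoter sites and 0.02 over all genes. Of genes at constant promoter sites, 2.22% of 5857 passed, and of genes at lost promoter sites, 2 of 105. Most member genes had no RNA change past the threshold. For the called genes below, a lack of overlap between groups describes the libraries that gave the call and is no separate support. The share of all genes without overlap is not given here.

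Calls differed with the position of the site. With the site centre within 100 bp of a start, 13 of 114 genes tested rose, against 3 of 91 for sites up to 500 bp upstream and 4 of 54 for sites farther upstream. A gene with several sites or starts can stand in more than 1 of these groups. Where no untreated RNA Pol II peak lay within 1000 bp, 15 of 151 genes rose, against 4 of 106 where one did. These differences between groups of sites were not tested.

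**Figure D3:**
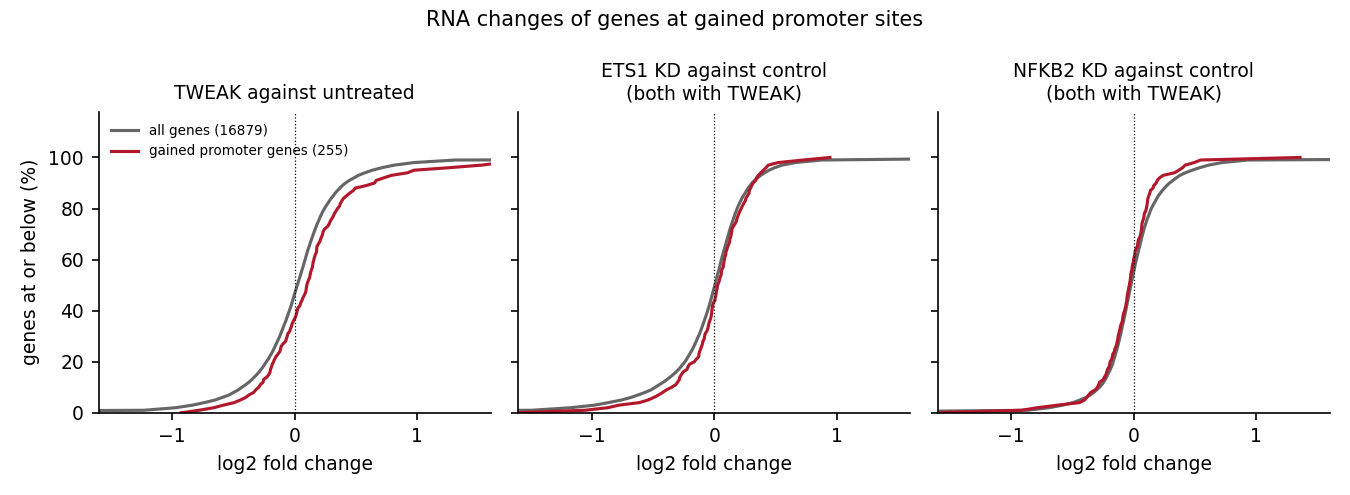
Lines give the cumulative percentage of genes (y axis) by log2 fold change (x axis) for 255 genes at gained promoter sites and for all 16879 genes in the 3 RNA comparisons. The line of gained promoter genes lies to the right of that of all genes for TWEAK against untreated, with medians of 0.10 and 0.02, and the lines nearly coincide for *NFKB2* KD, with medians of -0.04 and -0.02.

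The largest fold change was that of *HCAR2*, a receptor for niacin and hydroxybutyrate. It had 4, 2 and 1 counts in untreated cells and 39, 67 and 74 with TWEAK, or 0.139, 0.0615 and 0.0313 CPM against 1.40, 1.67 and 2.05. The groups did not overlap, but the level stayed low. The log2 fold change was 4.44 (SE 0.46, adjusted p = 0.00025 by edgeR), and its size rests on few untreated counts. With counts like the untreated ones it would not have passed the filter on low counts. It was thus tested only through the TWEAK-treated groups, where it is high. Whether *CFLAR-AS1*, *CLDN14* and *CADM1*, which were also low, entered in the same way was not examined. *HCAR3* is a near-identical neighbour, so reads of the 2 genes may be exchanged.

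The members included genes of NF-κB signalling. *NFKB2* itself rose by 2.35 on the log2 scale (SE 0.18, adjusted p = 2.92e-05 by edgeR), with all TWEAK libraries above all untreated ones. *TRAF3*, whose product promotes degradation of the kinase that starts p100 processing, was at 36.3, 41.8 and 49.5 CPM in untreated cells and 71.0, 79.7 and 96.3 with TWEAK. Its groups did not overlap, and its log2 fold change was 0.95 (SE 0.15, adjusted p = 0.0047 by edgeR). *IKBKG*, the gene of the NEMO subunit of the canonical kinase, was at 12.3, 11.9 and 14.2 CPM and then 14.2, 13.8 and 12.5, with a log2 fold change of 0.08 and adjusted p = 0.84 by edgeR. It has a pseudogene copy that may take some of its reads. These 3 were the members among 25 genes of the NF-κB pathway list. Of that list, 13 genes rose and none fell with TWEAK, against 1.55% and 1.53% of all genes.

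*TNIP2*, which encodes a binding partner of the NF-κB inhibitor A20, was at 58.8, 56.8 and 55.9 CPM in untreated cells and 102.5, 97.2 and 95.5 with TWEAK. The libraries were tight within each group and far apart between them. Its log2 fold change was 0.78 (SE 0.09, adjusted p = 0.00056 by edgeR). *CFLAR*, which encodes an inhibitor of caspase-8 activation, was at 55.8, 55.4 and 54.1 CPM and then 80.4, 83.8 and 97.5. The log2 fold change was 0.66 (SE 0.12, adjusted p = 0.011 by edgeR), a rise in all 3 TWEAK libraries. *CFLAR-AS1*, the antisense gene at the same locus with a gained site of its own, had under 1 CPM in every control library and a log2 fold change of 2.07 (SE 0.46, adjusted p = 0.030 by edgeR), which missed the threshold whichever of the 6 control libraries was left out. The strand setting of the counting is not given in the sources used here, so reads of *CFLAR* and *CFLAR-AS1* may not have been told apart.

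*CTSS*, the gene of the lysosomal protease cathepsin S, was at 46.1, 45.6 and 42.7 CPM in untreated cells and 167, 166 and 204 with TWEAK. This was a clean separation, with a log2 fold change of 2.00 (SE 0.15, adjusted p = 2.92e-05 by edgeR). *ALDH1A3*, a retinaldehyde dehydrogenase gene, was at 159, 164 and 171 CPM and then 461, 448 and 574. The log2 fold change was 1.59 (SE 0.14, adjusted p = 0.00013 by edgeR), again with no overlap. *CH25H*, which encodes cholesterol 25-hydroxylase, was at 1.39, 1.20 and 1.41 CPM and then 4.02, 4.41 and 4.55, a log2 fold change of 1.70 (SE 0.24, adjusted p = 0.0018 by edgeR).

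*NRG1*, a ligand gene of ERBB receptors, was at 36.6, 40.7 and 45.4 CPM in untreated cells and 92.4, 104 and 148 with TWEAK. *PLK2*, a polo-like kinase gene with 2 gained sites, was at 24.1, 22.2 and 18.6 CPM and then 56.8, 47.5 and 54.0. Neither gene's groups overlapped. The log2 fold changes were 1.49 (adjusted p = 0.0067 by edgeR) for *NRG1* and 1.29 (adjusted p = 0.0014 by edgeR) for *PLK2*. *CLDN14*, a claudin gene of tight junctions, and *CADM1*, a cell adhesion gene, were low throughout, with log2 fold changes of 2.83 (adjusted p = 0.0024 by edgeR) and 1.62 (adjusted p = 0.040 by edgeR). *CADM1* missed the threshold whichever of the 6 control libraries was left out. *NUAK2* rose by 1.36 on the log2 scale (adjusted p = 0.041 by edgeR), and its first TWEAK library, at 2.12 CPM, was closer to the untreated range of 1.22 to 1.59 than the others were. It missed the threshold in 5 of the 6 fits that left out 1 library.

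*CCND1*, which drives entry into the cell cycle, was at 823, 876 and 934 CPM in untreated cells and 1127, 1200 and 1208 with TWEAK. It changed little but was measured precisely, with a log2 fold change of 0.42 (SE 0.09, adjusted p = 0.028 by edgeR), and it missed the threshold in 4 of the 6 fits that left out 1 library. It was the only called gene with a p52 site of both control libraries. It was also the only member among 24 genes of the cell cycle list, of which 2 rose (8.33%, against 1.55% of all genes). *TNIP2*, *TRAF3* and *KIFC3* had a p52 peak in the second TWEAK-treated control library alone, with fold enrichments of 10.1, 9.89 and 4.94. The other raised genes were *CSNK1E*, a casein kinase gene, *EHD4*, of endocytic recycling, *GLDC*, of glycine breakdown, and *KIFC3*, a kinesin gene, with log2 fold changes from 0.49 to 0.74. The site of *EHD4* was nearest to a start of *PLA2G4E-AS1*, and that of *GLDC* to one of *ENSG00000236924*. Of 11 alternative fits, *CSNK1E* missed the threshold in 4, *EHD4* in 1, and *GLDC* and *KIFC3* in 5 each.

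RNA of 2 genes at gained sites fell. *MCAM* was at 134.5, 129 and 156 CPM in untreated cells and 86.9, 98.95 and 92.6 with TWEAK. All TWEAK libraries were below all untreated ones, and the log2 fold change was -0.59 (SE 0.13, adjusted p = 0.030 by edgeR). *ABCB9*, a lysosomal peptide transporter gene whose site also lies in the window of *ARL6IP4*, was at 23.9, 22.8 and 27.2 CPM and then 12.02, 14.3 and 12.5. The log2 fold change was -0.93 (SE 0.21, adjusted p = 0.031 by edgeR). Both genes missed the threshold in each of the 6 fits that left out 1 library, with adjusted p up to 0.13 and 0.15 by edgeR.

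**Figure D4:**
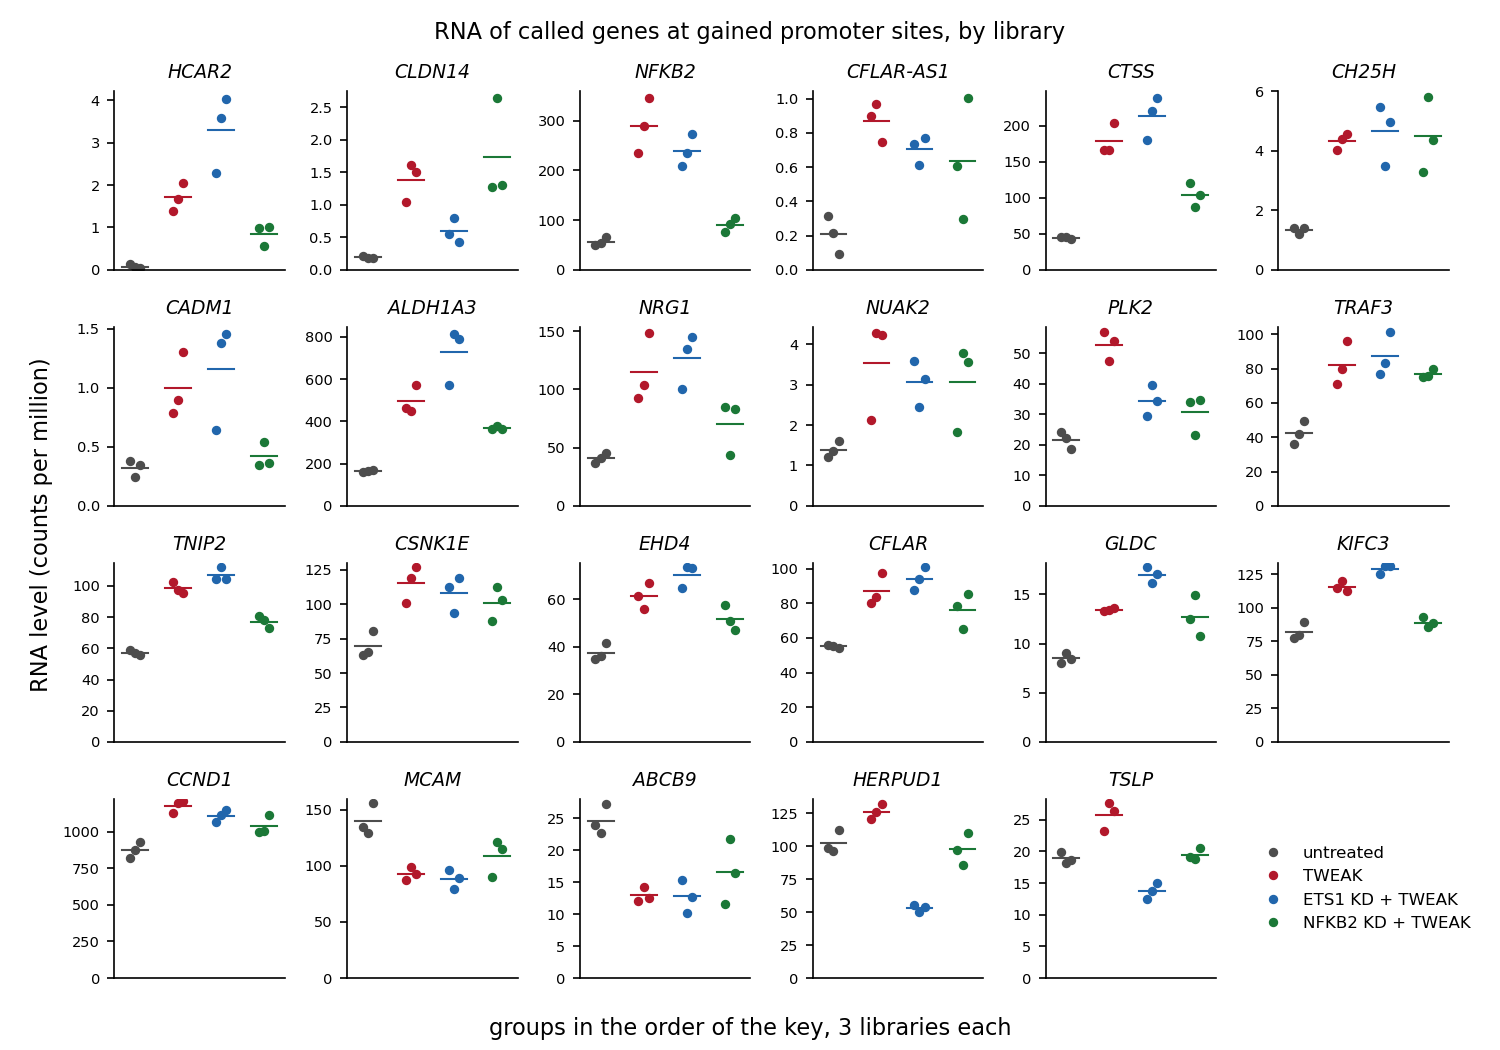
Points give the RNA level (y axis, CPM, linear from 0) of 23 called genes at gained promoter sites in each of 12 libraries, and lines are group means. The 19 raised genes have every TWEAK library above every untreated one, while *MCAM* and *ABCB9* have the reverse. These genes were called on the same libraries, so the separation describes the call and does not add to it.

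Few genes at members with a p52 or ETS1 site could be tested. Of 8 tested genes at members with a p52 site, *CCND1* passed the threshold (12.5%, against 3.08% of all genes), and 1 gene of 8 says little about the class. *GSN* was at 314.5, 322 and 324.5 CPM in untreated cells and 201, 199 and 185 with TWEAK. Its log2 fold change was -0.72 (SE 0.21) and did not pass the threshold (adjusted p = 0.099 by edgeR). *UNKL*, with the third highest RNA Pol II value, had a log2 fold change of 0.31 (adjusted p = 0.52 by edgeR) and *ZNF3* one of 0.06 (adjusted p = 0.86 by edgeR). *CAMK1G* did not pass the filter. Of 6 tested genes at members with an ETS1 site, none passed an adjusted p of 0.05 by edgeR, 3 had an unadjusted p under 0.05 and 1 passed by DESeq2. *ZIC2*, a zinc finger factor gene, had an adjusted p of 0.080 by edgeR.

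The RNA Pol II peaks of KD cells at the called genes fell into several patterns. No KD list held a peak at *HCAR2*, *CLDN14*, *NFKB2*, *CTSS*, *CADM1*, *TNIP2*, *MCAM* and *ABCB9*. A peak was present only in *ETS1* KD cells at *CFLAR-AS1*, *ALDH1A3*, *NRG1*, *TRAF3*, *CSNK1E* and *KIFC3*. It was present only in *NFKB2* KD cells at *CH25H*, with fold enrichments of 5.12 and 6.09. *NUAK2* and *CCND1* had a peak in all 4 KD lists, while *EHD4*, *CFLAR* and *GLDC* had one in both KDs but not in every list.

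Among the sites with no KD peak, that of *NFKB2* covered chr10:102396384-102398468, centred 84 bp downstream of a start, with RNA Pol II fold enrichments of 7.96 and 5.20 after TWEAK. The site of *CTSS* covered chr1:150765546-150766045 and had 5.08 and 4.94, and that of *HCAR2* covered chr12:122703173-122703606 and had 4.36 and 4.51. An untreated peak lay within 1000 bp of the first 2. The sites that kept a peak included that of *TRAF3* at chr14:102777197-102777796, with 9.78 and 6.620 in control cells and 4.35 in 1 *ETS1* KD library. That of *CCND1* at chr11:69642610-69643783 was no stronger in control cells, with 4.19 and 5.18, than in *ETS1* KD cells, with 3.74 and 6.47, or in *NFKB2* KD cells, with 6.09 and 6.57.

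*PLK2* had a site with no KD peak and another with a peak in both *ETS1* KD lists. At the latter, the fold enrichment was 3.28 and 4.14 in TWEAK-treated control cells and 5.98 and 31.9 in *ETS1* KD cells, so 1 library stood far above the rest. The share of genes called with TWEAK was 9.41% of 85 where no KD list held a peak, 11.5% of 52 with a peak in *ETS1* KD alone, 2.94% of 34 in *NFKB2* KD alone and 6.25% of 80 in both. Each is a few genes, and the differences were not tested.

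**Figure D5:**
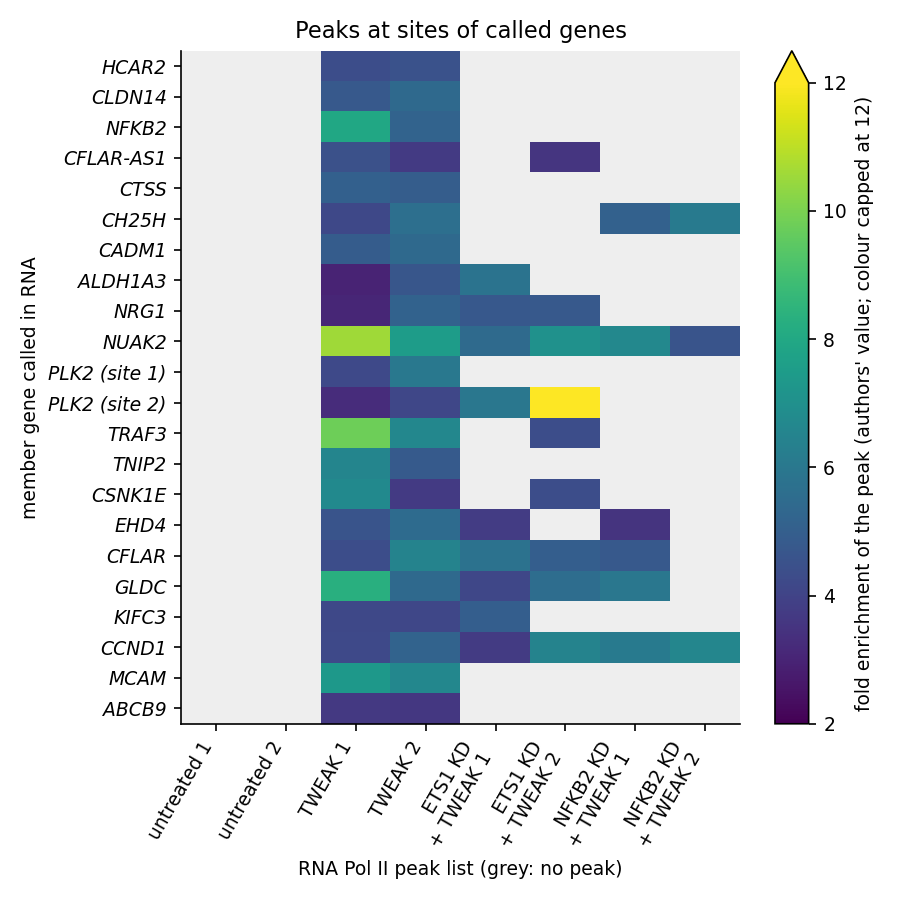
Colours give the authors' fold enrichment of the RNA Pol II peak at the sites of 21 called genes (rows, *PLK2* with 2 sites, ordered by log2 fold change of RNA with TWEAK) in 8 peak lists (columns), and grey marks no peak. The untreated columns are grey by the choice of members, 8 genes are grey in all 4 KD columns, and the colour is capped at 12 although 1 *PLK2* value was 31.9.

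RNA of the member genes in KD cells was compared with that of TWEAK-treated control cells. These comparisons share the TWEAK-treated control libraries with the TWEAK comparison, so their values are given side by side and not related to each other. In *ETS1* KD cells, 2 of 255 member genes passed (0.784%), both lower, against 1.39% of all genes, 0.255% higher and 1.13% lower. The median log2 fold change was 0.03 over member genes and 0.01 over all genes. In *NFKB2* KD cells, 1 member gene passed (0.392%), against 0.0296% of all genes (0.00592% higher and 0.0237% lower), and this was the targeted *NFKB2* itself (log2 fold change -1.67, SE 0.18, adjusted p = 0.0034 by edgeR). The medians were -0.04 and -0.02. Since only 5 genes passed over the whole table, this comparison gives little information on single members.

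*HERPUD1*, a gene of the endoplasmic reticulum stress response, was at 121, 126 and 132 CPM in TWEAK-treated control cells and 55.8, 50.2 and 53.8 in *ETS1* KD cells. The groups were far apart, with a log2 fold change of -1.24 (SE 0.11, adjusted p = 0.00016 by edgeR). In untreated cells, it was at 98.4, 96.5 and 112 CPM, a log2 fold change with TWEAK of 0.30 (adjusted p = 0.20 by edgeR). Its gained site had no peak in any KD list. *HERPUD1* was the only member among 20 genes of the unfolded protein and amino acid response list. Of that list, 11 genes were lower in *ETS1* KD cells and none higher, against 1.13% and 0.255% of all genes.

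*TSLP*, a cytokine gene, was at 23.1, 27.6 and 26.4 CPM in TWEAK-treated control cells and 12.4, 13.7 and 15.01 in *ETS1* KD cells. The log2 fold change was -0.91 (SE 0.12, adjusted p = 0.0017 by edgeR), with no overlap. With TWEAK its log2 fold change was 0.44 (adjusted p = 0.061 by edgeR). Its site kept a peak in 1 *ETS1* KD library, at 3.90, and none in the other or in *NFKB2* KD cells, against 5.30 and 4.14 in TWEAK-treated control cells.

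For the raised genes, the KD libraries are given by gene. None of the KD differences given for them passed the adjusted threshold. These genes were called on the same TWEAK-treated control libraries, so a lower KD value is no separate support. *CTSS* was at 181, 221 and 240 CPM in *ETS1* KD cells and 121, 88.0 and 104 in *NFKB2* KD cells. The log2 fold change in *NFKB2* KD cells was -0.78 (SE 0.14, adjusted p = 0.19 by edgeR). *TNIP2* was at 104, 112 and 105 CPM in *ETS1* KD cells and 80.5, 77.9 and 72.7 in *NFKB2* KD cells. Its log2 fold change in *NFKB2* KD cells was -0.35 (SE 0.09, adjusted p = 0.68 by edgeR). *ALDH1A3* was at 572, 816 and 790 CPM and 363, 376 and 363, with 0.55 (adjusted p = 0.081 by edgeR) in *ETS1* KD cells and -0.43 (adjusted p = 0.86 by edgeR) in *NFKB2* KD cells.

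*TRAF3* was at 76.7, 83.4 and 101.2 CPM in *ETS1* KD cells and 75.1, 75.8 and 79.7 in *NFKB2* KD cells, and both groups overlapped the TWEAK-treated control cells. *HCAR2* was at 2.29, 3.59 and 4.03 CPM in *ETS1* KD cells and 0.984, 0.571 and 1.00 in *NFKB2* KD cells, against 1.40 to 2.05 in TWEAK-treated control cells. Neither difference passed the adjusted threshold, with adjusted p = 0.16 and 0.81 by edgeR. *PLK2* was at 29.4, 39.7 and 34.2 CPM in *ETS1* KD cells and 33.8, 23.2 and 34.7 in *NFKB2* KD cells. It did not pass in either comparison, with adjusted p = 0.12 and 0.32 by edgeR.

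The remaining lists of genes, for cytokines and chemokines, adhesion and antigen presentation, matrix and invasion, interferon response, ETS factors and AP-1 or immediate early genes, held no member. With TWEAK, 1.55% of all genes rose and 1.53% fell. Of 18 tested genes of the cytokine and chemokine list, 9 rose and none fell. Of the others, 3 of 21 adhesion, 5 of 18 matrix, 1 of 19 interferon, 2 of 17 ETS factor and 5 of 20 AP-1 genes rose and none fell.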

How the data were processed

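RNA-seq and ChIP-seq of U-87 MG cells were analysed from the deposited files. The authors trimmed reads with Trimmomatic, aligned those of RNA-seq by STAR (hg38) and obtained gene counts by featureCounts. The deposited RNA-seq values are these raw counts. For ChIP-seq, the authors used Bowtie2 (hg38), then MACS2 with input subtracted, and took out blacklisted regions. They deposited 1 peak list per library with the fold enrichment ratio and with p-values and q-values as −log10. The peak lists hold no read counts, so their depth is unknown. Tool versions, the annotation and the strand setting of the counting are not given in the sources used here, and the 3 inputs were not used. The labels and the methods name different library kits for RNA.

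Peaks sharing at least 1 bp were merged and set against GENCODE release 44 on hg38, and all starts of a gene's transcripts were used. The 95% intervals of shares are exact (Clopper-Pearson) and cover counting error only. Genes kept by filterByExpr were tested with edgeR 4.0.16 in R 4.3.3 (TMM, quasi-likelihood F-test, 4 groups in 1 model, Benjamini-Hochberg adjustment over all genes tested). DESeq2 1.42.0, other normalisation and filters, fits of 2 groups, a replicate block and leaving out each library were alternatives. CPM used TMM library sizes. The main fit did not pair samples by replicate number. No replicates differed by as little as sampling noise, and the RNA-seq libraries are biological replicates by the study's methods. Sequences were read from hg38, and motifs searched on both strands. Python 3.11.15, NumPy 2.4.6, SciPy 1.17.1 and matplotlib 3.10.9 were used. Scripts were tested on simulated data. Of the value columns of the count table, 0 were left unused.

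The members and lists were chosen with earlier results of these data known. Genes named were the targeted genes, the 10 sites with the highest lower TWEAK fold enrichment, the 10 largest rises and 5 largest falls among called genes (5 each in the KD comparisons), members with a p52 or ETS1 site in both TWEAK control libraries, members of the lists, up to 8 called genes with no KD peak, and the sites nearest to the window's limits. The remaining called genes, the genes at sites between several starts and the factor-bound genes singled out for their RNA were named after their values were seen. One site beside the window's limits is not reported here.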

Additional observations from a re-analysis of the deposited data

How the results depend on the processing

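The number of gained promoter sites depends on every list. It was 174 with −log10 q of at least 5 in the control lists, and 340 to 3020 when a control library was left out (2380 without the second untreated, 1061 without the first TWEAK and 3020 without the second TWEAK library). The share with no peak in either *ETS1* KD list was 26.4% at that q and 43.3% with equal numbers of the strongest peaks, and 21.3% to 81.2% with a library left out. For *NFKB2* KD, it was 27.6%, 40.4% and 18.8% to 90.0%, the last without the first *NFKB2* KD library. The share with a p52 site was 1.39% to 4.12% with a library left out and 10.8% with a peak in either replicate. The share with an ETS1 site was 8.62% at that q, 6.404% with equal numbers, 1.51% to 6.89% with a library left out and 5.73% with a peak in either replicate.

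Member genes called with TWEAK numbered 32 by DESeq2 (25 up, with 5.57% of all genes), 13 at that q, and 10 to 20 with a library left out: 11 without the first, 10 without the second untreated library, 12 without the second and 11 without the third TWEAK library, all up. In these 4 fits, the share of all genes called fell to between 0.99% and 1.23%. Of the 21 called genes, 10 stayed past the threshold in all 11 alternatives (*HCAR2*, *CLDN14*, *NFKB2*, *CTSS*, *CH25H*, *ALDH1A3*, *NRG1*, *PLK2*, *TRAF3*, *TNIP2*), and 11 did not in at least 1. *MCAM*, *ABCB9*, *CADM1* and *CFLAR-AS1* missed it in each of the 6 fits that left out 1 library. None changed direction. Member genes called in *ETS1* KD numbered 7 by DESeq2 (3 up), 9 without the filter (2 up), 13 at an unadjusted p of at most 0.05 with a fold of at least 1.5 (2 up, with 5.67% of all genes), 1 at that q, which was higher, and 2 to 3 with a library left out. Those in *NFKB2* KD numbered 4 by DESeq2, 4 without the filter, 8 at the unadjusted threshold (1 up, with 2.25% of all genes) and 0 by edgeR at that q, where *NFKB2* is no member and 4 genes had an unadjusted p under 0.05 and 1 passed by DESeq2. They numbered 1 with any library left out and 2 in the window from 2000 bp upstream to 500 bp downstream. Where a count stands without a share of all genes, it cannot be told here whether member genes exceeded that share. The causes were not tested.

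With a replicate block, 27, 2 and 1 member genes were called in the 3 comparisons. The shares of all genes called with the block are not given here, so these counts are not compared with them. The deviations of same-numbered libraries correlated between -0.30 and 0.49. Some of these values lay above and some below the highest correlation with another number, so whether the replicate numbers pair the samples is not settled. Peak lists carry no test to block.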
